A study of Mus musculus with 3 samples.

Results

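The imprinting control regions of 10 mouse loci, Peg3, Snrpn, H19, Kcnq1ot1, Mest, Peg10, Grb10, Nnat, Gnas and Impact, were examined in ID8, a mouse ovarian cancer line. Each region was taken as a fixed window of 9 to 30 kb on the mouse build mm9, and its members were the CCCGGG sites that the deposited tables list there. The windows held 27 of the 173449 listed sites, and 9 of these 27 had at least 10 reads in every library and are called covered. The covered share was 33.3%, against 13.9% of all listed sites. No mm9 annotation was used here, so the windows carry the locus names as given. Whether a site is exonic, intronic, in a UTR or inside the control region itself was not analysed here. The data are 3 libraries of 1 group, with no control group: untreated ID8 cells of strain C57BL/6, female, labelled as ovarian surface epithelial cells. The assay, DREAM (digital restriction enzyme analysis of methylation), cuts unmethylated CCCGGG with SmaI and then uses XmaI to cut the methylated copies, so that the read start tells both states apart. The samples are a cultured line and not normal ovary, and separate cultures are not stated. The spread between libraries may therefore be technical.

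Genomic imprinting is the expression of a gene from the maternal or the paternal copy only. It is governed by control regions whose CpGs are methylated on the copy from a single parent and unmethylated on the other, a difference set in the germ line and kept in body cells. An assay that reads both copies together then gives a middle level. H19 has a control region methylated on the paternal copy. The control regions of Peg3, Snrpn, Kcnq1ot1, Mest, Peg10, Grb10, Nnat and Impact are methylated on the maternal copy. Gnas is a complex of several promoters with maternal and paternal marks of its own.

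Of these loci, 2 could be read at depth: Grb10 and Gnas held 8851 of the 8901 reads in the windows, out of 27240999 reads in the series. The Grb10 window had a middle level at its single covered site, 41.7% ± 2.35 (SD, n = 3), although the 4 covered sites that begin 8.26 kb further along the chromosome were at 99.2% ± 0.133. Of the 8 covered sites in the Gnas window, 7 were nearly fully methylated, at 98.7% ± 0.153 together, and the other, at position 174124966, was at 66.6% ± 1.92. The remaining 8 windows had no covered site. The windows of Snrpn and Peg10 list no CCCGGG site, and the other 6 had 50 reads in all. Of these reads, only the 20 at Nnat gave an exact interval confined to high levels, 83.2% to 100%. The 9 reads at Mest were all methylated. Their interval, 66.4% to 100%, still takes in the 66.6% of the Gnas site 174124966. Over the 9 covered sites the median level was 99.1%, against 24.4% over all 24112 covered sites of the series.

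The promoter sequences of Grb10 and Gnas that hold the motif are shown first. No covered site of the windows was matched to a motif in them. They are the 250 bases before 3 transcript starts, from RefSeq promoters of build GRCm38.p6, with the CCCGGG that the assay cuts in capitals. CCCGGG reads the same on both strands and cannot overlap a copy of itself. It was present in 11.2% of all 32851 promoter sequences of this length. The table held 16 promoters for 7 of the loci, and 3 of the 16 contained the motif.
Grb10 upstream promoter, GRCm38.p6 chr11:12037421-12037670, minus strand: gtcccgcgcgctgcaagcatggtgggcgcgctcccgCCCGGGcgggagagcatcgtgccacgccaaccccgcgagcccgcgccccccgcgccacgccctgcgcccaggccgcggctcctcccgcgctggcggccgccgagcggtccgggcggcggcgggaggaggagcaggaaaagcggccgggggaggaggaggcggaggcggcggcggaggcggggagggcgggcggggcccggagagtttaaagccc
Grb10 downstream promoter, GRCm38.p6 chr11:12027972-12028221, minus strand: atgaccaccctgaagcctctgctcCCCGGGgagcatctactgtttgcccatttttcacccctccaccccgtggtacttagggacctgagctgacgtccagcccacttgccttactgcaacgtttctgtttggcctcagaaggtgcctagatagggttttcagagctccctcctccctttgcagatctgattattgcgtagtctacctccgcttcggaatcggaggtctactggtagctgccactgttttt
Gnas most downstream promoter in the table, GRCm38.p6 chr2:174329756-174330005, plus strand: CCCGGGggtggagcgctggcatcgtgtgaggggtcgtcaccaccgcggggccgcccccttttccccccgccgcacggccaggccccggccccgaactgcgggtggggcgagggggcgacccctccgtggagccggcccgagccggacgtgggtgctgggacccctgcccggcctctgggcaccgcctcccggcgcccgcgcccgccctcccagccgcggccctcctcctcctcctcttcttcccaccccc
The upstream Grb10 sequence held 40 CpGs and the downstream one 8, against a median of 6 over all promoters, and the Gnas sequence held 29.

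The listed sites that correspond to these motifs were found by spacing, without moving any coordinate between builds. Up to 250 kb from either end of the Grb10 gene the promoter table held 3 CCCGGG motifs, the 2 of Grb10 and 1 of Gm11999, which lies beyond the far end of the gene, 342530 bp from the downstream Grb10 motif. Their distances from each other fitted the listed sites of chromosome 11 at exactly 1 placement, which put the downstream Grb10 motif at the mm9 site 11928198 and the upstream one at 11937635, 9437 bp away. The Grb10 pair alone had 3 placements on the chromosome, so the match rests on the third motif too. For Gnas, 5 motifs from Stx16, Npepl1 and Gnas itself fitted chromosome 2 at 1 placement, with the Gnas motif at site 174155260. The match gives the same spacing in both builds and is no alignment of the sequence.

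Grb10 encodes an adaptor protein that binds the insulin and insulin-like growth factor receptors and restrains growth. It is expressed from the maternal copy in most tissues, and in neurons from the paternal copy through a downstream promoter that lies at the control region. The covered site of its window, at position 11928514 of chromosome 11 (mm9), lay 316 bp upstream of the site matched to the downstream promoter. Replicate 1 gave 354 methylated of 797 reads, or 44.4%, with a 95% interval (exact, Clopper-Pearson) from 40.9% to 47.9%. Replicate 2 gave 338 of 841, or 40.2%, from 36.9% to 43.6%. Replicate 3 gave 419 of 1034, or 40.5%, from 37.5% to 43.6%. All 3 libraries thus read the site in the middle range, replicate 1 slightly above the others, and the intervals overlap. The authors' adjusted percent, which multiplies the odds of methylated to unmethylated reads by 1 factor per library, was 61.7%, 54.8% and 54.1% in replicates 1, 2 and 3, with a mean of 56.9% ± 4.22 (SD, n = 3). The deposited counts put the site below 50% and the adjusted values put it above, in 3 of 3 libraries each. The matched downstream promoter site itself, at 11928198, had 3 methylated of 8 summed reads, or 37.5% with an exact interval of 8.52% to 75.5%, which is too few to place it.

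Toward the upstream Grb10 promoter the covered sites were nearly fully methylated. The 4 sites there, from 11936776 to 11937846, averaged 99.1%, 99.3% and 99.1% in replicates 1, 2 and 3. The site matched to the upstream promoter, at 11937635, was methylated in 944 of 961 summed reads, 98.2% ± 0.720 (SD, n = 3). The sites at 11937005 and 11937846 had no unmethylated read among 390 and 970. The site at 11936776 was at 98.6% ± 0.318. Since the assay reads fragment ends, neighbouring sites can share fragments, and these 4 are not independent. The read numbers of the pair 11936776 and 11937005 were 61 and 62 in replicate 1, 126 and 131 in replicate 2, and 188 and 197 in replicate 3. A further site 783 bp past this run, at 11938629, had 22 methylated of 37 summed reads (59.5%, exact interval 42.1% to 75.2%) and had at least 10 reads in replicates 1 and 2 only.

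The window site lay below the 4 sites by 54.7, 59.2 and 58.6 percentage points in replicates 1, 2 and 3, a signed difference of window minus flank of -57.5 ± 2.43 (SD, n = 3). The flank is the covered sites up to 50 kb outside the window on either side. At Grb10 all 4 of them lay on the same side, in a run of 1070 bp. An exact sign-flip permutation test, two-sided over the libraries, had p = 0.25, and no smaller p can be reached with 3 of them. Every library showed the same direction and the difference was many times the spread between libraries. The comparison still sets 1 site against 4.

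Gnas encodes the stimulatory G protein alpha subunit that couples receptors to adenylyl cyclase. Other promoters of the complex give the neuroendocrine secretory protein Nesp55 from the maternal copy, and the variant XLαs and the antisense RNA Nespas from the paternal copy. Of the 12 listed sites in the Gnas window 8 were covered, in 2 places. The first was a single site at 174110635 of chromosome 2, with 327 of 329, 305 of 308 and 304 of 307 reads methylated in replicates 1, 2 and 3, a level of 99.1% ± 0.212 (SD, n = 3). The second began 13.2 kb further on, where 7 covered sites from 174123795 to 174125768 averaged 94.1% ± 0.146. Both places were methylated in every library. No RefSeq promoter motif was matched inside this window, so these sites are not assigned to a promoter here.

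**Figure D1:**
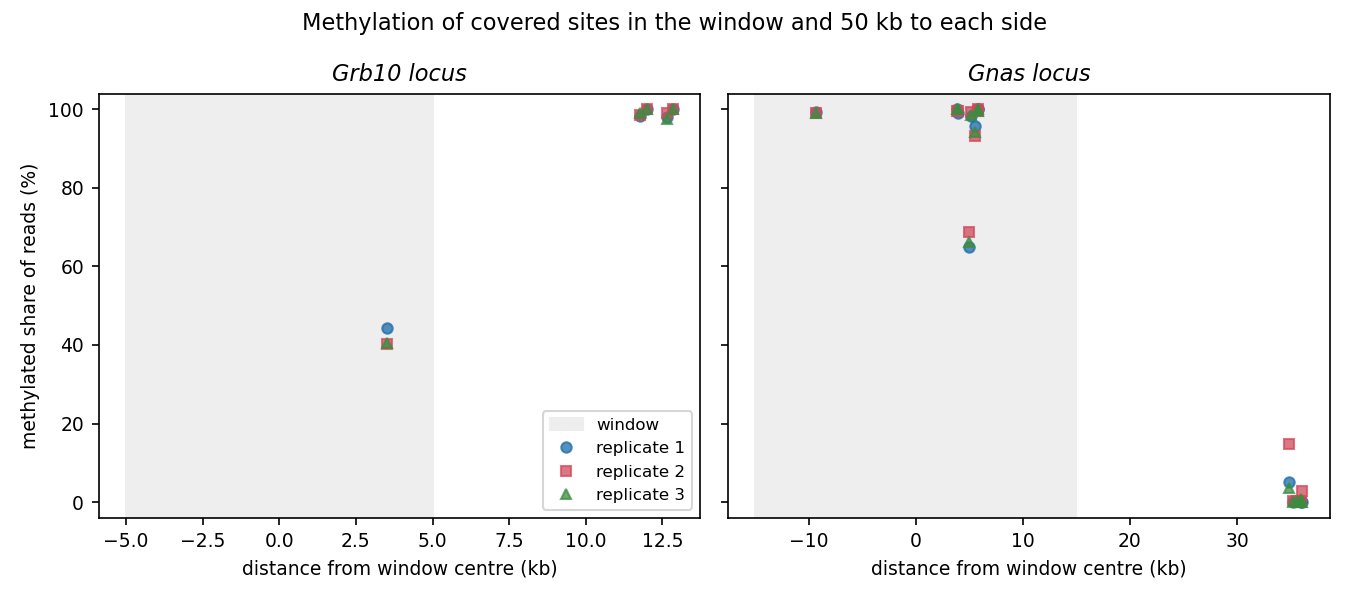
Methylated share of reads (%, vertical axis) at the covered sites of the Grb10 locus (left) and the Gnas locus (right), against distance from the window's centre (kb); symbols and colours are the 3 replicates and grey marks the window. The Grb10 window site lies between 40.2% and 44.4% and the sites to its right at 97.5% or more, while the Gnas window sites lie at 64.96% or more and the sites to their right at 14.7% or less.

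Within the run of 7 the sites differed among themselves by more than the libraries did. The site with the lowest level, at 174124966, had 76 of 117, 123 of 179 and 123 of 186 reads methylated, or 64.96%, 68.7% and 66.1% (exact intervals 55.6% to 73.5%, 61.4% to 75.4% and 58.8% to 72.9%). It was thus below its neighbours in each library. The next covered site, 189 bp away at 174125155, was at 98.6% ± 0.610 (SD, n = 3) over 1277 summed reads. The listed site 36 bp before 174124966, at 174124930, had 20 methylated of 20 reads but was read too thinly to count as covered.

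The Gnas site with the most reads, at 174125553, was at 95.7%, 93.3% and 94.2% over 483, 624 and 686 reads. The highest level was at 174125768, where all 114 summed reads were methylated (exact interval 96.8% to 100%). Its neighbour 9 bp away, at 174125759, had 630 of 632 reads methylated. The pair at 174123795 and 174123975 was methylated in 445 of 446 and 445 of 447 reads, and its read numbers differed by at most 3 in any library. The sites at 174110635, 174125155, 174125759 and of this pair were singled out after their values were seen. Over the 8 covered sites the window mean was 94.6%, 94.8% and 94.7% in replicates 1, 2 and 3, and the adjusted percent gave 96.7% ± 0.196.

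A site reading lower than methylated neighbours on both sides, as 174124966 does, was not rare among the sites so placed. Of 252 covered sites whose nearest covered neighbours on both sides lay within 1 kb and at 95% or more, 51 (20.2%) were under 75%. The 51 include 174124966 itself and take in any level under 75%, not only a partial one.

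Downstream of the window the covered sites of the Gnas locus formed a run of 6 that was largely unmethylated. The site matched to the last Gnas promoter, 174155260, lies 20260 bp past the window's end and had 0 of 743, 2 of 895 and 0 of 978 reads methylated, a level of 0.0745% ± 0.129 (SD, n = 3). With its 4 covered neighbours up to 174156106 it averaged 0.326% ± 0.302 over 7275 reads. The first covered site of this run, at 174154841, was methylated in 2 of 39, 11 of 75 and 2 of 54 reads (7.83% ± 5.96), replicate 2 being the highest. A site 942 bp before it, at 174153899, had 25 methylated of 25 summed reads, but fewer than 10 in replicates 1 and 3. Past the run, the thinly read site at 174171527 had 8 methylated of 8 summed reads (exact interval 63.1% to 100%), so the low levels hold for the run and not for the whole downstream side.

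The Gnas window therefore exceeded its flank, by 93.7, 91.8 and 93.9 percentage points in replicates 1, 2 and 3, or 93.1 ± 1.13 (SD, n = 3; exact sign-flip permutation p = 0.25, two-sided, the smallest possible). All 6 covered flank sites lay on the downstream side. The window-minus-flank differences of Grb10 and Gnas thus had opposite signs. Set against each other, the Gnas window was above the Grb10 window by 53.0 percentage points ± 2.42 (SD, n = 3) in 3 of 3 libraries, with the same exact sign-flip permutation p of 0.25. This comparison of the 2 windows was not planned, and it sets 1 Grb10 site against the mean of 8 Gnas sites.

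**Figure D2:**
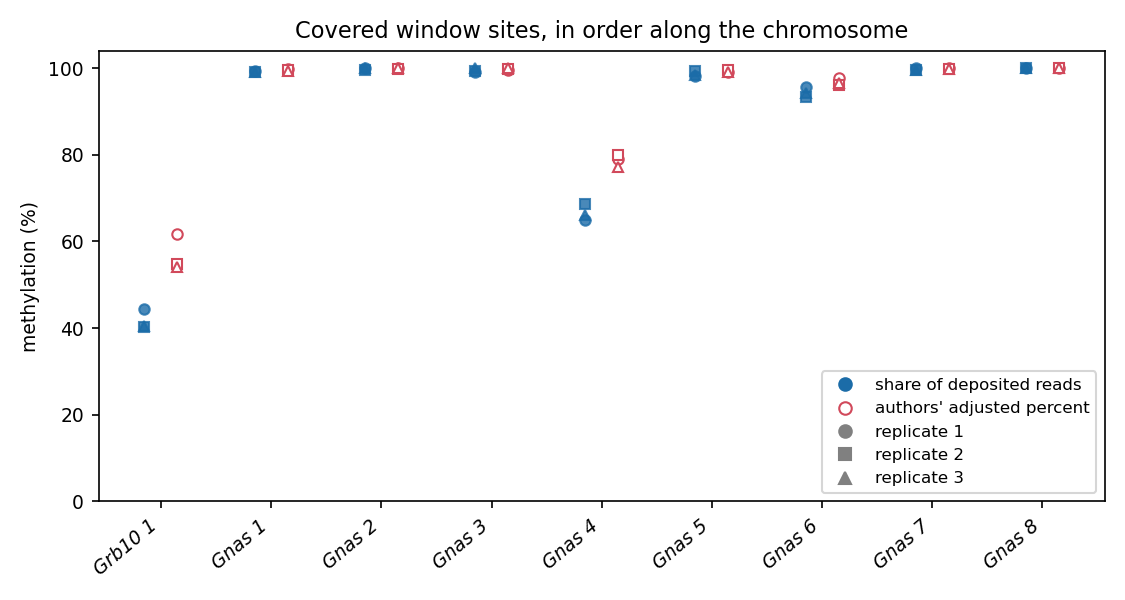
Methylation (%) of the 9 covered window sites in order along each chromosome; filled symbols are the share of deposited reads, open symbols the authors' adjusted percent, and their shapes the 3 replicates. The Grb10 site moves from 41.7% to 56.9% on average and the fourth Gnas site from 66.6% to 78.6%, while the other 7 Gnas sites stay at 93.3% or more on either scale.

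A level from 25% to under 75% was found at 2 of the 9 covered window sites, the Grb10 site and the Gnas site 174124966, against 12.5% of all covered sites. By the adjusted percent it was found at 1, the Grb10 site, against 11.8%. A level of 95% or more was found at 6 of the 9, against 26.6% of all covered sites. All 9 come from 2 loci and 8 of them from Gnas, so these counts describe Gnas more than the set of loci. As a wider background, the mean level was 25% to under 75% in 37.5% of the 2530 tiles of 10 kb that held at least 3 covered sites, and 90% or more in 9.01%, the range in which the Gnas window lies. A tile can reach a middle mean by holding both low and high sites. The Gnas window is 30 kb long and the Grb10 window has 1 covered site, so neither is like such a tile.

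Each pair of libraries was compared site by site with Fisher's exact test, p-values were adjusted over all 24112 covered sites by the Benjamini-Hochberg method, and a call needed a difference of at least 20 percentage points. In each pair 0 of the 9 window sites were called. The share called among all covered sites was 0.00415% for replicate 1 against replicate 2, the same 0.00415% for 1 against 3, and 0% for 2 against 3. Without adjustment, 0 window sites reached p under 0.05 in any pair, against 2.84% to 3.02% of all covered sites. These shares leave little to be counted among 9 sites, so the counts of 0 say nothing particular about the windows. A chi-square test with the same adjustment called 0. The smallest unadjusted p was 0.0889 by Fisher's exact test, for the Grb10 site between replicates 1 and 2, which differed by 4.23 percentage points. The SD between libraries was at most 2.35 points at any window site.

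In the other 8 windows the sites were few and thinly read. Outside the Gnas window 1 of 15 listed sites was covered, the Grb10 site, against 13.9% of all listed sites. The Snrpn and Peg10 windows held no listed CCCGGG site, and the single site in the Impact window had no read in any library. Snrpn encodes a splicing factor subunit, Peg10 is a retrotransposon-derived placental gene, and Impact encodes a regulator of translation.

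At Nnat, which encodes the proteolipid neuronatin, 1 of 3 sites was read: position 157386048 of chromosome 2 was methylated in 3 of 3, 7 of 7 and 10 of 10 reads. No unmethylated read was seen in any library, and the exact interval of the 20 summed reads was 83.2% to 100%. At Mest, which encodes a hydrolase-like protein expressed from the paternal copy, the sites 30686491 and 30688849 of chromosome 6 were methylated in 4 of 4 and 5 of 5 summed reads (joint exact interval 66.4% to 100%). Both windows thus gave methylated reads only, at a depth that leaves a wide interval.

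At H19, a non-coding RNA expressed from the maternal copy, 4 sites had 12 reads in all. The deepest, at 149771183 of chromosome 7, was unmethylated in 8 of 8 reads, which allows a level of up to 37.5%. The site at 149764071 was methylated in 2 of 2 reads, and those at 149761874 and 149761918 had 1 unmethylated read each. At Kcnq1ot1, an antisense RNA that silences neighbouring genes on the paternal copy, the site 150481348 was methylated in 1 of 5 reads. At Peg3, a zinc finger gene of the paternal copy, the site 6682654 was methylated in 1 of 4. Each of these 3 windows holds both kinds of read, too few to separate a low level from a middle one.

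**Figure D3:**
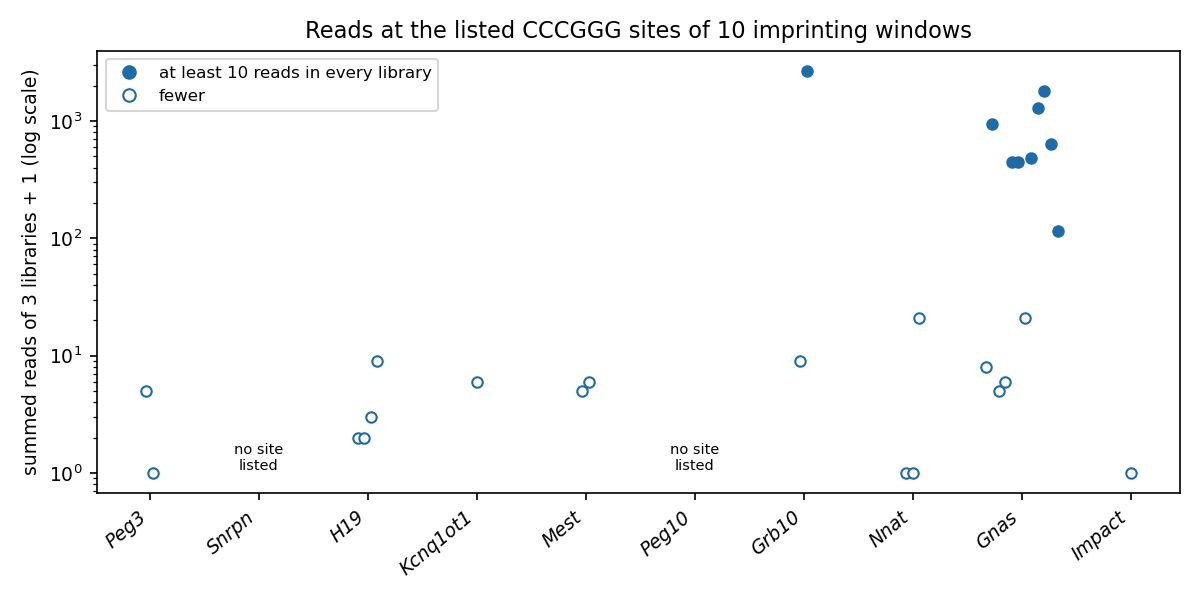
Summed reads of the 3 libraries plus 1 (log scale) at each listed CCCGGG site of the 10 windows, in order along the chromosome within a locus; filled points have at least 10 reads in every library and open points fewer. The filled points are 1 at Grb10 and 8 at Gnas, and no site of the other windows exceeds 20 summed reads.

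Coverage of the windows went with the spacing of the sites. Of the 11 window sites with no other listed site within 1 kb, 0 were covered, against 1.36% of such sites in the whole series. Of the 16 with a neighbour within 1 kb, 9 were covered, against 36.0% in the whole series. Of these 16, 10 lie in Gnas, and 8 of the 10 were covered. The remaining 6 lie in Grb10, H19 and Nnat, and the 4 at H19 and Nnat have a neighbour closer than 100 bp, a class of which 12.0% was covered in the whole series. The Gnas window held 4 sites of that class too, and 3 of them were covered.

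Around the windows without a covered site the levels were mixed. Covered flank sites were 4 of 12 listed at H19, 5 of 14 at Kcnq1ot1 and 2 of 8 at Impact. The covered share of all listed sites was 13.9%. Within 50 kb of H19, the pair from 149728966 to 149729306 averaged 93.1% ± 0.191 (SD, n = 3) and the pair from 149816664 to 149816895 averaged 0.810% ± 0.157. Within 50 kb of Kcnq1ot1 the sites at 150526991 and 150529824 were at 59.6% ± 0.324 and 66.8% ± 1.38, and by the adjusted percent at 73.1% and 78.7%. The other 3 covered sites there lay between 86.8% and 99.8%. Near Impact, the sites at 13100245 and 13156403 of chromosome 18 were at 0% over 45 reads and at 100% over 65. No covered site lay within 50 kb of Peg3, Snrpn, Mest, Peg10 or Nnat.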

How the data were processed

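The 3 ID8 libraries were profiled for methylation at CCCGGG sites. For each library and site the authors deposited counts of methylated, unmethylated and total reads, which are not normalized, and a pair of percent columns. Of these, the raw percent is the methylated share of the counts. In the authors' adjusted percent the odds are multiplied by a library factor, found from the files to be 2.02, 1.81 and 1.73 in replicates 1, 2 and 3; its origin is not stated. The submitters' processing notes name Bowtie2, SAMtools, mm9 and rn4, and the site identifiers carry mm9. Total reads were 7689526, 9190335 and 10361138. It is not stated whether duplicate reads were removed, so the intervals, and the limit of 3 reads used for a count of 0, hold for counting error alone.

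A level is the mean over libraries of methylated over total reads at covered sites, and a window mean counts each site once. Sites were tested between libraries by Fisher's exact test (scipy 1.17.1) over all covered sites, checked on simulated counts. The 10 windows and all lists were chosen with earlier results of these data known. Of a window with at most 6 covered sites every site is named, otherwise the lowest, the highest and the most deeply read. The spacing match to promoters was added after the data were seen. Alternatives were a minimum of 20 or 50 reads, the adjusted percent, summed reads, other flanks and class limits, a chi-square test and leaving out each library.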

Additional observations from a re-analysis of the deposited data

Results flagged for a closer look

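Reads were also present at window sites that the comparisons leave out for low depth. In the authors' table of the 3 libraries summed, the Nnat site at 157386048 of chromosome 2 had 20 methylated of 20 reads and the Gnas site at 174124930 had 20 methylated of 20, each with an exact interval of 83.2% to 100%. Both had fewer than 10 reads in at least 1 library.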

How the results depend on the processing

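The direction of both window-minus-flank differences and the count of 0 window sites called between libraries held under every alternative run. The adjusted percent put the Grb10 window at 56.9% and the Gnas window at 96.7%. It left 1 window site at a middle level, as did limits of 35% to under 65%. The Gnas window was at 94.0% with a minimum of 50 reads, at 95.3% from summed reads of covered sites and at 95.2% from summed reads of all listed sites, the last an alternative added after the data were seen. The share of 10 kb tiles at a middle level was 32.4% with a minimum of 50 reads, 36.5% by the adjusted percent and 37.8% to 38.1% when single libraries were left out. The Grb10 difference was -48.6 points without replicate 3, where site 11938629 joined the flank, and -42.7 by the adjusted percent. The Gnas difference was 86.9 points with a flank of 20 kb, which held only 1 covered site. It was 79.4 points with a flank of 100 kb, which held 7. The planned median of differences over loci was not formed, since only 2 loci gave a value, with opposite signs. No paired comparison between groups was possible because the series has 1 group. Of the 8 loci with no covered site, Snrpn and Peg10 list no site, and the sites listed at the other 6 had too few reads or none.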
